A study of Mus musculus with 8 samples.

Results

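The mouse antimicrobial peptide families and the whey acidic protein (WAP) family were described in the oviduct on gestation day 2 (GD2) after neonatal genistein (Gen) treatment. The members were the non-control array probes whose gene name began with Defb, Defcr, Defa, Wfdc or Reg3 followed directly by a number or letter, together with Slpi, Camp, Lyzs, Lyz1, Lyz2, Bpi, Plunc, S100a8, S100a9, Pglyrp1, Lpo and Dmbt1 where the array carried them. This rule took 60 of 41174 probes, which stood for 53 of the 27962 gene names on the array: 26 beta-defensins, 7 alpha-defensins, 3 Reg3 lectins, 8 WAP proteins and 9 other antimicrobial proteins.

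Female CD-1 mice, an outbred stock, were injected subcutaneously with Gen at 50 mg/kg/day in corn oil, or with corn oil alone as controls, from postnatal day (PND) 1 to 5. At 6 to 8 weeks of age all of them were superovulated with gonadotropins and mated, so that hormone priming and mating were common to both groups. Oviducts were taken on pregnancy day 2, 48 hr after human chorionic gonadotropin (hCG), and were cleared of embryos. Both oviducts of 1 mouse made 1 sample, and RNA of 4 control and 4 Gen-treated mice was labelled with Cy3 and hybridised to single-colour Agilent whole mouse genome arrays. Each group was on a slide of its own, and in every comparison given here the treatment cannot be told apart from the slide.

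Defensins are small cationic peptides, folded by paired cysteines, that damage microbial membranes. Beta-defensins are made by many epithelia and in great variety by the epididymis, whereas the alpha-defensins of mice (cryptdins) are products of intestinal Paneth cells. WAP proteins carry a core held by several disulphide bonds, and many of them inhibit serine proteases: secretory leukocyte peptidase inhibitor (Slpi) blocks neutrophil elastase and cathepsin G and also kills bacteria. In the female tract such secreted proteins belong to the mucosal defence of a lumen that must also admit sperm and carry embryos.

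The tissue label fitted the arrays: all 17 oviduct secretory markers, Ovgp1 among them, and 15 of 16 ciliated-cell markers were well above background on all 8 arrays. The number of probes well above background was 25359 to 28934 on control arrays and 29527 to 31481 on Gen arrays. The dimmest probes were lower on the Gen slide throughout. Among the 7908 probes tested that were well above background on no array, 63.4% were called lower in Gen-treated mice, 0% were called higher, and the median log2 fold change was -1.16. For that reason detection is given first, and a lower value of an undetected member was not read as a change.

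A gene was taken as detected where the scanner software called its probe well above background. Of the 53 member genes, 16 were detected on all 8 arrays, 8 more on all 4 arrays of a group, 8 on some arrays but on no full group, and 21 (39.6%) on none. Counted by probe, 30% of the members and 60.5% of all probes were well above background on all 8 arrays, and 35% and 19.2% were so on none. The control arrays held 17 genes detected on all 4 of them, and the Gen arrays held 23. By a weaker flag of the scanner software these numbers were 28 and 29, and counted on at least 1 array of the group they were 31 and 31.

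The families divided sharply by detection. Of the 8 WAP proteins, 7 were detected on all 8 arrays (Slpi, Wfdc1, Wfdc2, Wfdc3, Wfdc6a, Wfdc12 and Wfdc15) and none was absent from all of them. Of the 26 beta-defensins, 2 (Defb14 and Defb19) were detected on all 8 arrays and 14 on none, among them Defb5, Defb7, Defb8, Defb12 and Defb15. The 7 alpha-defensin names had 2 on all 8 arrays (Defcr3 and Defcr4) and 4 on none. The 3 lectins Reg3a, Reg3d and Reg3g, which bind bacterial peptidoglycan or are related to those that do, were detected on no array. Of the 9 other members, Camp, Lpo, Lyzs, Pglyrp1 and S100a9 were detected on all 8 arrays.

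**Figure D1:**
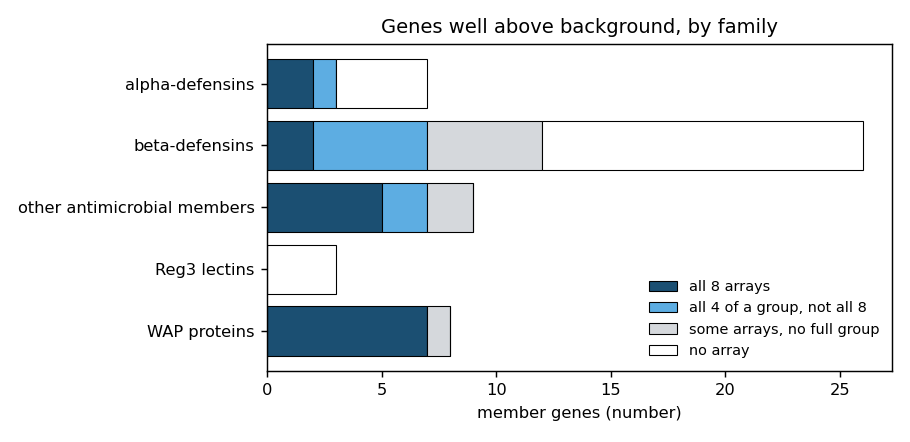
Number of member genes (x axis) in each family (y axis), divided by the arrays on which the gene was well above background. The WAP proteins and the other antimicrobial members have no undetected gene, whereas 14 of 26 beta-defensins, 4 of 7 alpha-defensins and all 3 Reg3 lectins were detected on no array.

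The array reads each gene through a probe of 60 bases, and the letters of the probes bear on which gene a signal belongs to. In the probes of the WAP proteins Wfdc6a and Wfdc12 and of the beta-defensin Defb14 the cysteine codons (TGT or TGC) of an open frame are shown in capitals. Their spacing was not measured. They are given 5′ to 3′ as deposited, with the mm7 position of the file. Wfdc6a is at chr2:164324482-164324541 and Wfdc12 at chr2:163931049-163931108, both on the minus strand, and Defb14 is at chr8_random:1797591-1797650 on the plus strand.
Wfdc6a: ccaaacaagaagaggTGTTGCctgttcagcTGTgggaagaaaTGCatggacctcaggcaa
Wfdc12: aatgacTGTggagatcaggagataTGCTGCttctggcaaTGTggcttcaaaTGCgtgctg
Defb14: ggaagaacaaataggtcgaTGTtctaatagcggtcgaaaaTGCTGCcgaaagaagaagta

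The Wfdc6a probe holds 4 cysteine codons in the frame chosen, the Wfdc12 probe 5 and the Defb14 probe 3. The frame was chosen for the most cysteine codons among those without a stop codon. There were 3 such frames for Wfdc6a, 2 for Wfdc12 and 1 for Defb14. Counts made in this way cannot show which gene a probe reads. The probe of Camp, the mouse cathelicidin, is at chr9:109544107-109544166 on the minus strand and lies in the stretch that encodes the antimicrobial peptide itself.
Camp: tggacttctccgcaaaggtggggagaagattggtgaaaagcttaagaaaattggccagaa

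The alpha-defensin genes are near-identical copies, and their probes share runs of bases. The run of 15 bases common to the dim Defcr3 probe and to the Defcr4 and Defcr20 probes is in capitals below. The dim Defcr3 and Defcr20 probes share 20 bases in a row. Values of this family are therefore uncertain as to which copy they come from. The probes are at chr8:20438720-20438780, chr8:20438820-20438879, chr8:20126869-20126928 and chr8:20292296-20292355 in the order shown, all on the plus strand.
Defcr3, bright probe: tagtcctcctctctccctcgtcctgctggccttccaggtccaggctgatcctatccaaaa
Defcr3, dim probe: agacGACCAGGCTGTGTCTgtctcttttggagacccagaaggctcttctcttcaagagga
Defcr4: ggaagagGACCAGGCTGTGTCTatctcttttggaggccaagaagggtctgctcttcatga
Defcr20: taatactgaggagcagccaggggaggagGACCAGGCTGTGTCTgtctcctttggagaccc

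Signals are given on the scale of the arrays after each array was divided by its 75th percentile and set back to a common level, and fold changes are Gen over control on the log2 scale with limma's standard error (SE) and its Benjamini-Hochberg adjusted p over all 41173 probes tested. Probes differ in how brightly they bind, so a level is compared only between samples. Of the 60 member probes, 5 were called higher and 14 lower in Gen-treated mice at an adjusted p under 0.05, where 2.17% of all probes were called higher and 14% lower. Of the 14 lower probes, 11 were detected on no array, which is 52.4% of the 21 undetected members beside 63.4% of all undetected probes. These 11 (Defa1, Defcr6, Defcr23, Reg3d, Defb5, Defb8, Defb10, Defb12, Defb35, Defb38 and Defb40) are not described further. Before scaling, the median signal of the undetected members was 3.39 to 11.9 on the 8 arrays, beside 3.09 to 11.9 for the negative control spots of the same arrays.

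Among the 16 genes detected on all 8 arrays, 3 rose (Slpi, Wfdc3 and Defb19) and 3 fell (Wfdc1, Wfdc15 and Wfdc6a), with 1.93% and 2.44% of all such probes called in those directions. The median log2 fold change of the 16 was -0.23, beside -0.01 for all such probes. Among the 16 detected on 1 to 7 arrays, Dmbt1 rose and none fell, where 4.94% and 1.91% of all such probes were called. The 2 groups did not overlap at 24 of the 60 member probes, where 22.5% of all probes with 8 values did not. Of these 24 probes, 12 were detected on no array, and undetected probes make up more of the members than of the whole array. Among the 18 member probes detected on all 8 arrays, 7 did not overlap, where the share of all such probes was 12.4%. In bulk oviduct, fewer cells of a type and less RNA per cell cannot be told apart.

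**Figure D2:**
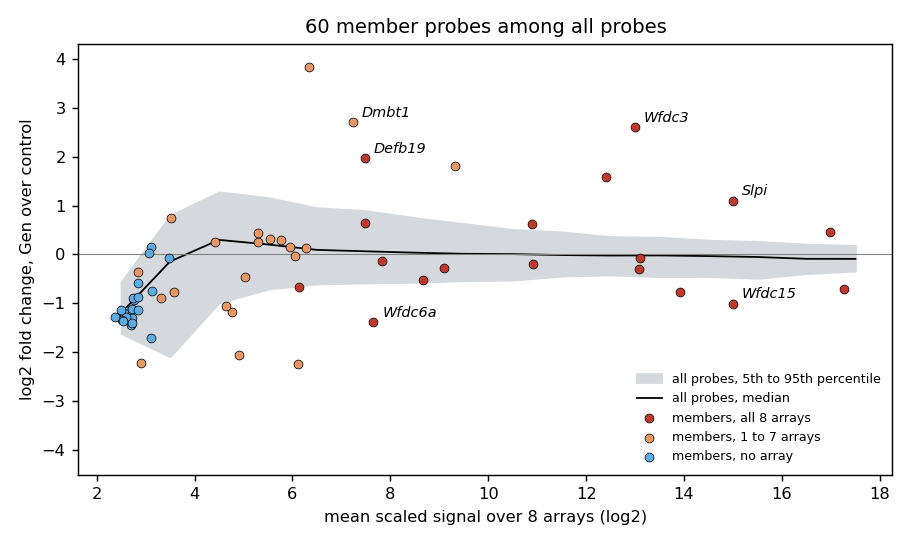
Log2 fold change of Gen over control (y axis) against mean log2 signal over the 8 arrays (x axis) for the 60 member probes, coloured by detection, over the median (line) and the 5th to 95th percentile (grey band) of all probes in bins of 1 log2 unit. The undetected members follow the drop of all dim probes, and 20 member probes lie outside the band of probes of like signal, 8 of them called (those of Slpi, Wfdc3, Dmbt1, Wfdc1, Wfdc15 and Wfdc6a and both of Defb19) and 12 not called, such as those of Wfdc2, Lyzs, Defb2, S100a8 and S100a9.

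Of the 7 called genes that were detected on any array, 5 were WAP proteins, and they went both ways. Slpi (chr2:164095003-164095062, minus strand, mm7) read 18578, 25239, 21386 and 24448 in the 4 controls and 47369, 42607, 41499 and 60927 in the 4 Gen-treated mice. The lowest Gen-treated mouse was well above the highest control. The log2 fold change was 1.09 (SE 0.17, 95% confidence interval 0.71 to 1.48, adjusted p = 0.0236), a 2.14-fold rise. A second Slpi probe, 5.21 kb away, was well above background on 1 of the 8 arrays and carries no usable level.

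Wfdc3, a WAP protein with several WAP domains, had the largest fold change of the WAP proteins at its brighter probe (chr2:164472012-164472071, minus strand). Its signal was 5515, 4126, 2617 and 2028 in controls and 13854, 26082, 18747 and 23942 in Gen-treated mice. The groups lay far apart, with a log2 fold change of 2.60 (SE 0.34, 95% confidence interval 1.81 to 3.39, adjusted p = 0.0236), or 6.05-fold. A dimmer probe of the same gene name, 12.7 kb away, read 177 to 279 in controls and 183 to 263 in Gen-treated mice, and its groups overlapped fully (log2 fold change -0.13, SE 0.18, adjusted p = 0.695). The probes were designed on different transcript records, and which transcripts of the locus each one reads was not tested.

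Wfdc15 (now Wfdc15b, a WAP protein reported to kill bacteria; chr2:163955366-163955425, minus strand) fell in Gen-treated mice. The controls read 44328, 66554, 40495 and 38114 and the Gen-treated mice 22958, 27138, 22394 and 20035. All 4 Gen-treated mice were below every control, by -1.01 on the log2 scale (SE 0.20, adjusted p = 0.0236), a 2.01-fold fall.

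Wfdc6a, whose probe is printed above, read 235, 390, 422 and 290 in controls. It read 120, 127, 135 and 119 in Gen-treated mice, a narrow range that lay below all controls. The log2 fold change was -1.38 (SE 0.19, 95% confidence interval -1.83 to -0.93, adjusted p = 0.0276 with only the bright probes fitted and 0.0236 with all), a 2.60-fold fall.

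Wfdc1 (chr8:118319199-118319258), known as a growth-inhibitory stromal WAP protein, is the member of this family that lies outside chromosome 2. Its signal was 16211, 22224, 21461 and 21337 in controls and 10212, 13194, 13630 and 10589 in Gen-treated mice. The groups did not overlap, and the fall was 1.71-fold (log2 fold change -0.77, SE 0.16, adjusted p = 0.0236).

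Wfdc2 and Wfdc12 had lower means in Gen-treated mice but did not pass the test. Wfdc2, the secreted epithelial protein also known as HE4, read 139615, 244230, 234707 and 202931 in controls and 131531, 141285, 137449 and 91495 in Gen-treated mice (log2 fold change -0.70, SE 0.22, adjusted p = 0.0719). Control 1 lay among the Gen-treated mice while the other 3 controls lay above all of them. Wfdc12 ranged from 356 to 714 in controls and from 249 to 558 in Gen-treated mice (log2 fold change -0.52, SE 0.30, adjusted p = 0.304), with Gen 4 inside the control range. Wfdc5 was dim, and its probes differed in sign without a call: the one with the higher mean signal was detected on 2 control and 2 Gen arrays (log2 fold change -1.04, SE 0.41, adjusted p = 0.135), and the other on 0 control and 3 Gen arrays (0.25, SE 0.21, adjusted p = 0.490).

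**Figure D3:**
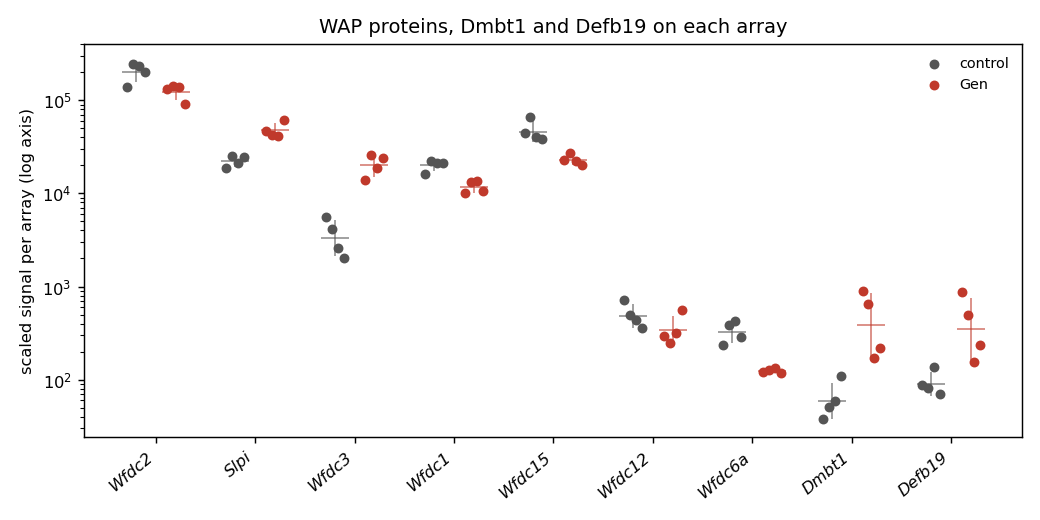
Scaled signal on each array (y axis, log scale; points, 4 per group) with the mean and SD of the log2 values (dash and bar) for the 7 WAP proteins detected on all 8 arrays, Dmbt1 and Defb19. Slpi, Wfdc3, Dmbt1 and Defb19 lie higher and Wfdc1, Wfdc15 and Wfdc6a lower in all 4 Gen-treated mice, while Wfdc2 and Wfdc12 overlap. Heights of different genes are not comparable, since each probe binds at its own strength.

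These calls changed with how the dim probes were handled and with single arrays. When the dim probes were left out of the fit, keeping those above background throughout at least 1 group, 0.601% of 28955 probes were called higher and 0.504% lower, and 3 of the 24 members fitted passed the test: Wfdc3 (adjusted p = 0.0270), Wfdc6a (0.0276) and Slpi (0.0282). Wfdc15 then had an adjusted p of 0.0508, Wfdc1 of 0.0543, Dmbt1 of 0.0682 and Defb19 of 0.100. The unadjusted limma p of each was smaller than in the main fit (Wfdc15 0.00057 against 0.00088, Wfdc1 0.00071 against 0.0012). Of the 5782 probes called lower in the main fit, 5015 were detected on no array. These calls were thus lost through the adjustment over a different set of probes. Leaving out Gen 1, Gen 2 or Gen 3 took Slpi, Wfdc1, Wfdc3, Wfdc6a, Wfdc15 and Dmbt1 to adjusted p = 0.0633, 0.0675 and 0.0603. Leaving out control 1 took Slpi, Wfdc1 and Wfdc15 to adjusted p = 0.0591 and Dmbt1 to 0.0593. Over the 8 refits that each left out 1 array, the log2 fold change of Slpi lay between 0.98 and 1.16, that of Wfdc3 between 2.36 and 2.84 and that of Wfdc6a between -1.54 and -1.26.

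Most of these WAP genes are neighbours. On chromosome 2 of mm7 the Wfdc and Slpi probes span 566 kb (chr2:163918523-164484817), in which the array has 31 probes, 10 of them members and 17 detected on all 8 arrays. Of the 7 member probes detected on all 8, 2 rose (Slpi and Wfdc3, 377 kb apart) and 2 fell (Wfdc15 and Wfdc6a). Of the 10 other probes detected on all 8, none rose and 1 fell. That probe reads Wfdc15a, a WAP gene that the file calls 1700049M11Rik. It read 530 to 1225 in controls and 238 to 375 in Gen-treated mice (log2 fold change -1.24, SE 0.28, adjusted p = 0.0241). Eppin, an epididymal protease inhibitor with a WAP domain that the file calls Spinlw1, read 221 to 705 in controls and 121 to 264 in Gen-treated mice, with overlap (log2 fold change -1.19, SE 0.39, adjusted p = 0.0838). The direction therefore differed between neighbouring members of the region. The neighbours without a WAP domain that were detected on all 8 arrays, among them Sdc4, Matn4 and Dbndd2, were not called in either direction. At the 2 Dbndd2 probes every Gen-treated mouse was nevertheless below every control (log2 fold changes -0.71 and -0.47, adjusted p = 0.118 and 0.0589). At 1 probe of Sys1 every Gen-treated mouse was above every control (0.34, adjusted p = 0.192). The groups overlapped at the other such neighbours. Over all probes detected on all 8 arrays, 12.4% did not overlap.

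**Figure D4:**
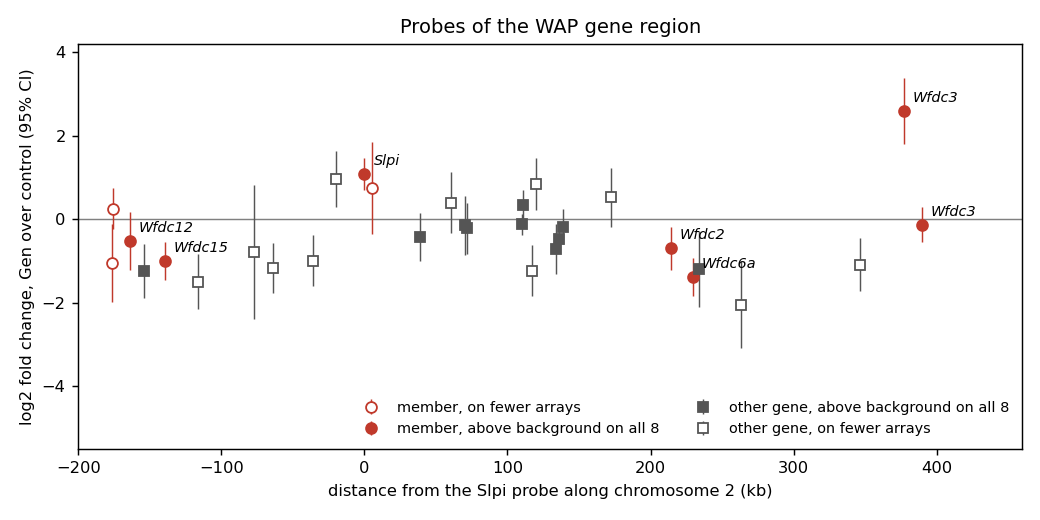
Log2 fold change of Gen over control with its 95% confidence interval (y axis) against distance from the Slpi probe along chromosome 2 in kb (x axis) for the 31 probes of the WAP region. Filled symbols were well above background on all 8 arrays. Slpi and 1 Wfdc3 probe lie above 0, Wfdc15 and Wfdc6a below it, and the filled squares of other genes lie between -0.71 and 0.34 apart from Wfdc15a and Eppin.

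The stretches before the starts of the 4 called genes of this region are shown because these neighbours moved in opposite directions. The table of RefSeq promoters (GRCm38.p6) held 36 of the 53 members, and 250 bases before the start are printed, 5′ to 3′ on the gene's strand (minus for all 4). A set of 4 motifs was searched on both strands, namely TATAAA (the core of a TATA box), AGGTCA (the core bound by estrogen receptors and other nuclear receptors), TTGCNNAA (C/EBP) and TGANTCA (AP-1), and matches are in capitals. Of 32851 promoters, 12.4% hold TATAAA, 14% AGGTCA, 9.56% TTGCNNAA and 6.75% TGANTCA in the same window. The positions are chr2:164356508-164356757 for Slpi, chr2:164743268-164743517 for Wfdc3, chr2:164221664-164221913 for Wfdc15b and chr2:164585448-164585697 for the first start listed for Wfdc6a.
Slpi: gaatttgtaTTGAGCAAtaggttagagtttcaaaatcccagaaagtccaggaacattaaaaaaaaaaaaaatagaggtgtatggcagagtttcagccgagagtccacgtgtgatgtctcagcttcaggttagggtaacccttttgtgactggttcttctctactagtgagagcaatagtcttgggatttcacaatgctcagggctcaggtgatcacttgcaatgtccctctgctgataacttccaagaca
Wfdc3: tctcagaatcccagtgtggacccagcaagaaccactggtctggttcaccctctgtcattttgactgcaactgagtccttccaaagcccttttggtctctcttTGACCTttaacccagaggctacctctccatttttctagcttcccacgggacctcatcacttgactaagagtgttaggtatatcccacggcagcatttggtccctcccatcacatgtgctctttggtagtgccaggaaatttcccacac
Wfdc15b: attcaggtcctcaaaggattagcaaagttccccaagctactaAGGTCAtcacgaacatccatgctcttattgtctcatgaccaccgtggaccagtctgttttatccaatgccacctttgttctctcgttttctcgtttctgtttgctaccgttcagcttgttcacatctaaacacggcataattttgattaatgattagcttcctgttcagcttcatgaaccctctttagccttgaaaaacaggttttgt
Wfdc6a: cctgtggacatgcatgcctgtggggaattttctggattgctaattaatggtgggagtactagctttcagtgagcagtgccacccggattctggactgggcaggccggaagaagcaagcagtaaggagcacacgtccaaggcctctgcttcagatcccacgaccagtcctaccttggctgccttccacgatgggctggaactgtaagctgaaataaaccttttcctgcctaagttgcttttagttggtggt

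Slpi has a match to TTGCNNAA on the opposite strand, 241 bases before the start. Among uncalled members searched in the same way, Wfdc12 and S100a9 hold TTGCNNAA 238 and 236 bases before the start. Wfdc2, S100a8, Camp and Lyz2 do not hold it. AGGTCA is found 148 bases before the start of Wfdc3, on the opposite strand, and 208 bases before that of Wfdc15b. Wfdc3, which rose at its brighter probe only, and Wfdc15b, which fell, each hold AGGTCA in this window. Wfdc6a holds none of the 4 motifs there. Any part of these motifs in the changes was not tested.

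The other called members detected on any array were Dmbt1 and Defb19. Dmbt1, a scavenger receptor of mucosal surfaces that agglutinates bacteria (chr7:127475099-127475158), was detected on 2 of the control arrays and on all 4 Gen arrays. It read 37.5, 50.9, 58.3 and 110 in controls and 889, 652, 173 and 216 in Gen-treated mice. All 4 Gen-treated mice exceeded every control, and Gen 1 and Gen 2 were several times as high as Gen 3 and Gen 4. The log2 fold change was 2.70 (SE 0.58, 95% confidence interval 1.35 to 4.04, adjusted p = 0.0236). With normexp, another background correction, it was 1.63 with adjusted p = 0.123, and 2 of the 4 control values are not well above background.

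Defb19, a beta-defensin best known from the male tract, was read by a pair of probes that share 40 bases, shown in capitals, at chr2:152317056-152317115 and chr2:152317036-152317095 on the minus strand. They are printed because both were called and they are not independent.
Defb19, brighter probe: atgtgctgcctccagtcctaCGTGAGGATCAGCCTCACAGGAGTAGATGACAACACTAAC
Defb19, other probe: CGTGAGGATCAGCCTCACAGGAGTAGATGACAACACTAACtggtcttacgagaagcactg

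At the brighter probe Defb19 read 86.8, 80.3, 138 and 69.2 in controls and 863, 496, 155 and 234 in Gen-treated mice. As for Dmbt1, Gen 1 and Gen 2 were the highest, and Gen 3 was only just above control 3. The log2 fold change was 1.97 (SE 0.52, adjusted p = 0.0362), or 3.91-fold, and with normexp 1.33 (adjusted p = 0.180). The overlapping probe read 840, 458, 110 and 206 in Gen-treated mice and was detected on 2 of the control arrays. The other control arrays read 7.49 and 6.26, not well above background, so that its log2 fold change of 3.83 (SE 1.02, adjusted p = 0.0370) was not read as a size. Leaving out control 1, control 2, control 4, Gen 1, Gen 2 or Gen 3 took the brighter probe to adjusted p = 0.0798, 0.0864, 0.0756, 0.0637, 0.0930 and 0.0603.

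The remaining detected defensins did not pass the test. Defb14, the mouse counterpart of human beta-defensin HBD-3, read 2792, 1693, 1532 and 2474 in controls and 2444, 886, 1890 and 2624 in Gen-treated mice (log2 fold change -0.18, SE 0.37, 95% confidence interval -1.03 to 0.67, adjusted p = 0.789). The groups overlapped over nearly their whole range. Defb2 read 123, 79.9, 457 and 111 in controls and 69.2, 10.1, 25.0 and 58.6 in Gen-treated mice (log2 fold change -2.23, SE 0.73, adjusted p = 0.0815). All 4 Gen-treated mice were below every control, and the gene was detected in all 4 controls and in 3 Gen-treated mice.

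Defb1, Defb3, Defb11 and Defb36 were detected on all 4 Gen arrays and on 2, 3, 1 and 2 control arrays. Their log2 fold changes were 0.30 for Defb1, 0.14 for Defb3, 0.26 for Defb11 and 0.45 for Defb36, with adjusted p from 0.334 to 0.675. The highest signal among them was 101, of Defb3 in Gen 1, and the groups overlapped for each of them. The more frequent detection on the Gen slide was thus seen for genes whose signal was not called higher. The part that the lower background of that slide has in the 23 detected genes of Gen arrays against 17 of control arrays was not tested.

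Of the alpha-defensin probes, the bright Defcr3 probe read 6480, 11923, 12074 and 9097 in controls and 7524, 11521, 8089 and 5202 in Gen-treated mice (log2 fold change -0.30, SE 0.29, adjusted p = 0.541). The dim Defcr3 probe read 21.4 to 118 in controls and 51.8 to 92.9 in Gen-treated mice (log2 fold change 0.16, SE 0.50, adjusted p = 0.871). Neither probe separated the groups. Defcr4 was led by control 3, at 301 where the other 7 arrays read 40.9 to 83.3 (log2 fold change -0.67, SE 0.57, adjusted p = 0.495). Defcr20 read 41.3 to 112 in controls and 51.0 to 96.8 in Gen-treated mice (log2 fold change -0.03, SE 0.33, adjusted p = 0.966).

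Members detected on some arrays but on no full group were Bpi (3 control and 3 Gen arrays), Defb29 (2 and 3), Defb6 (1 and 3), Plunc (now Bpifa1; 1 and 1), Defb41 (1 and 1), Defb9 (1 and 0) and Defb42 (0 and 1), besides Wfdc5. Bpi, which binds bacterial lipopolysaccharide, read 66.7, 122, 26.7 and 64.9 in controls and 22.9, 21.4, 20.5 and 4.77 in Gen-treated mice (log2 fold change -2.05, SE 0.62, adjusted p = 0.0595). The controls were all higher, but control 3 was close to Gen 1. Defb9 reached 173 in control 3 and was at most 8.63 in the other 7 mice.

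Lyzs, the lysozyme M gene now called Lyz2, which digests bacterial cell walls and is made by macrophages and neutrophils, was bright on all arrays. It read 91489, 108385, 136227 and 109138 in controls and 143809, 172206, 130089 and 166471 in Gen-treated mice (log2 fold change 0.47, SE 0.16, adjusted p = 0.0903). Control 3 lay above Gen 3, and the other controls below all Gen-treated mice. A dimmer probe of the gene read 1176 to 2108 in controls and 2134 to 2679 in Gen-treated mice, without overlap (log2 fold change 0.62, SE 0.18, adjusted p = 0.0566).

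Of 19 macrophage markers listed, all were detected on all 8 arrays, 17 had a positive log2 fold change with a median of 0.37 over the list, and 4 passed the test, all higher, where 1.93% of all probes so detected were called higher: Mpeg1 (0.71), Tyrobp (0.67), Adgre1 (0.66) and Ctss (0.47). Their summed signal was 107433 to 144780 in controls and 141483 to 195420 in Gen-treated mice. The part of macrophages in the Lyzs values was not tested.

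The calprotectin subunits S100a8 and S100a9, which bind zinc and manganese away from microbes and are abundant in neutrophils, varied widely between mice of the same group. S100a9 read 336, 2628, 24568 and 4367 in controls and 3637, 12970, 15362 and 10552 in Gen-treated mice. S100a8 read 47.4, 259, 2468 and 442 in controls and 432, 1056, 1835 and 2352 in Gen-treated mice. In both genes control 3 was the highest of all 8 mice and control 1 the lowest.

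The log2 fold changes were 1.58 for S100a9 (SE 1.17, 95% confidence interval -1.12 to 4.29, adjusted p = 0.431) and 1.80 for S100a8 (SE 1.12, 95% confidence interval -0.78 to 4.37, adjusted p = 0.345). Both intervals include falls as well as rises, so that no difference was detectable with this spread. Leaving out single arrays moved S100a8 between 0.85 and 2.75 and S100a9 between 0.51 and 2.58 without a call. Of 20 neutrophil markers measured, 13 were detected on all 8 arrays, and the granule protease Elane was detected on none. Of the 13, 7 had a positive log2 fold change. Itgam, which macrophages also express, was called higher (log2 fold change 0.74, adjusted p = 0.0236), where 1.93% of all probes so detected were. Without Ltf, which oviduct epithelium also makes, the summed signal of the neutrophil markers was 6674, 7496, 10163 and 7963 in controls and 7654, 11267, 10285 and 8290 in Gen-treated mice. Control 3 was thus the highest control in this sum as well, by far less than in S100a9, and the part of neutrophils in these values was not tested.

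Camp followed another pattern. It read 157, 121, 130 and 170 in controls and 99.8, 93.8, 618 and 428 in Gen-treated mice (log2 fold change 0.64, SE 0.62, adjusted p = 0.553). Gen 3 and Gen 4 were above all controls, and Gen 1 and Gen 2 below all of them. Lpo, the lactoperoxidase of secretions, read 433 to 857 in controls and 369 to 668 in Gen-treated mice (log2 fold change -0.28, SE 0.25, adjusted p = 0.516). Pglyrp1, a peptidoglycan recognition protein of neutrophil granules, read 6658 to 11418 in controls and 7039 to 11250 in Gen-treated mice (log2 fold change -0.06, SE 0.22, 95% confidence interval -0.57 to 0.45, adjusted p = 0.884). Neither gene separated the groups.

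**Figure D5:**
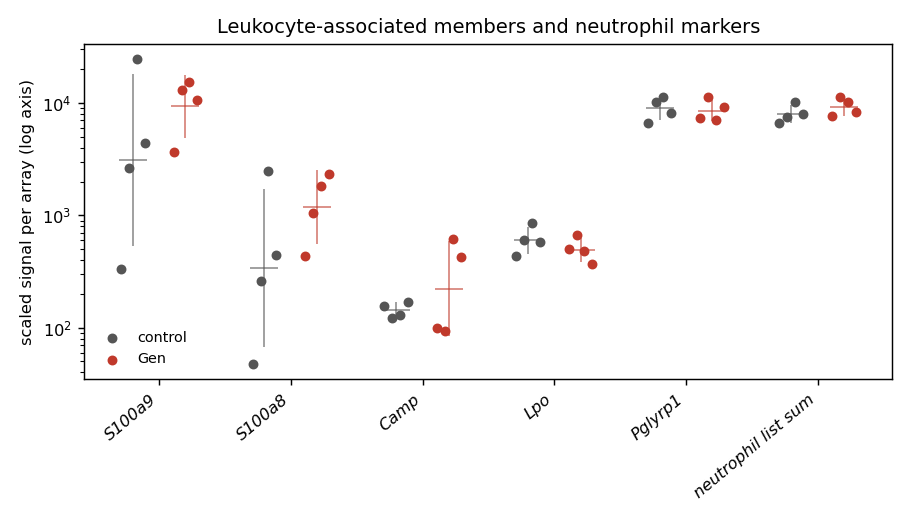
Scaled signal on each array (y axis, log scale; points, 4 per group) with the mean and SD of the log2 values for S100a9, S100a8, Camp, Lpo, Pglyrp1 and the summed signal of the neutrophil list without Ltf. S100a9 ranges from 336 to 24568 within the controls, Camp read 99.8 and 93.8 in Gen 1 and Gen 2 and 618 and 428 in Gen 3 and Gen 4, and the other series overlap between groups.

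Other antimicrobial proteins, which the rule leaves out, were set beside the members. Of 32 listed, 28 were measured and 14 were detected on all 8 arrays, of which 10 had a positive log2 fold change, with a median of 0.40. Sftpd, the surfactant collectin that clumps microbes, was called higher among these 14, where 1.93% of all probes so detected were called higher. It read 8530 to 21234 in controls and 25727 to 43702 in Gen-treated mice (log2 fold change 1.17, SE 0.33, adjusted p = 0.0476). Saa2, an acute-phase protein named here because it was the other gene called higher, was detected on 1 control and 4 Gen arrays. Saa2 read 264, 591, 110 and 90.1 in Gen-treated mice, again with Gen 1 and Gen 2 the highest (log2 fold change 2.39, SE 0.61, adjusted p = 0.0322). With the dim probes left out of the fit, neither Sftpd nor Saa2 was called. The 3 genes of this list called lower in the main fit were detected on no array. Lactoferrin (Ltf), an iron-binding estrogen-regulated secretion, read 228607 to 411857 in controls and 361828 to 450120 in Gen-treated mice (log2 fold change 0.37, SE 0.19, adjusted p = 0.238). Lcn2, which captures bacterial siderophores, had a log2 fold change of 0.66 (SE 0.26, adjusted p = 0.142), Itln1, a lectin, 1.14 (SE 0.46, adjusted p = 0.142) and Rnase4 -0.24 (SE 0.12, adjusted p = 0.241), none of them called.

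Genes known to induce antimicrobial proteins in epithelia were not called where they were detected, and the 1 listed gene called lower was detected on no array. Of 28 listed, 27 were measured and 23 were detected on all 8 arrays, with no call among the 23. Of the 23, 7 had a positive log2 fold change, and the median was -0.21, beside -0.01 for all probes so detected. Nfkbia, the inhibitor and target of NF-kB, had a log2 fold change of -0.54 (SE 0.20, adjusted p = 0.107), Stat3 0.11 (SE 0.21) and Cebpb 0.18 (SE 0.12), and Il17a was detected on no array. The lists of other cell types gave no call among genes detected on all 8 arrays for squamous epithelium (17 of 26), ciliated cells (15 of 16) or smooth muscle and stroma (16 of 16). Of the genes so detected, 4, 4 and 3 had a positive log2 fold change, with medians of -0.17, -0.07 and -0.20. The secretory list had 2 of 17 called lower, Pgr (-0.64) and Sox17 (-0.62), and no gene called higher, where 2.44% and 1.93% of all such probes were called. Of the 17, 8 had a positive log2 fold change. The calls of the macrophage, neutrophil and secretory lists were not counted in the fit without the dim probes.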

How the data were processed

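Arrays of 4 control and 4 Gen oviduct samples were scanned and extracted by the authors with Agilent Feature Extraction 9.5, and the deposited values are background-subtracted, spatially detrended intensities, 1 per spot, not yet scaled between arrays. The authors' deposited series table repeats these intensities. Here, in R 4.3.3, outlier spots were left out, spots of a probe were averaged, each array was scaled to its 75th percentile and log2 values were fitted with limma 3.58.1 (lmFit, eBayes), with Benjamini-Hochberg adjustment over 41173 probes. The scaled log2 intensity behind a fold change was computed here from the deposited intensity. Replicates entered as separate mice. A probe was taken as well above background by the scanner's flag. A gene was read through its brightest probe, and other probes are given where sign or call differed. Every member detected on all arrays of a group is described; from each gene list at most 6 genes are named, called ones first and then the brightest. Members and lists were chosen with earlier results of these data known. Names follow the files; current symbols came from RefSeq (GRCm38.p6) by accession for 55 of the 60 probes and by name for 2, and 3 kept the file's name. No member value was saturated and 1 (Defcr22, Gen 3) was left out as an outlier. The number of arrays limits the precision. The fit and the permutation code were tested on simulated data. With 200 of 41040 simulated probes changed, the fit called 78% of the 4-fold and 28% of the 2-fold changes. Many more probes were called in the arrays, so these shares need not hold there. A member or list without a call may therefore still differ between the groups. Figures were drawn with matplotlib. Alternatives were another normalization, another background correction, dim-probe filters, another variance model, the methods' t-test, a replicate block and each array left out.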

Additional observations from a re-analysis of the deposited data

Results flagged for a closer look

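In each group of 4 mice, the highest or lowest log2 signal was compared with the spread of its group by Dixon's ratio, the gap to the nearest other mouse over the whole range, for the 32 member genes detected on any array. Of 64 groups, 5 had a mouse set apart, and chance gives about 5% of groups. Wfdc1 was lowest in control 1 (16211, nearest 21337; ratio 0.871), and Wfdc2 was lowest in Gen 4 (91495, nearest 131531; ratio 0.835). Bpi was lowest in Gen 4 (4.77, nearest 20.5, ratio 0.930) and Defb36 lowest in control 1 (18.8, nearest 40.1, ratio 0.955), both near background. Defb9 was highest in control 3 (173, nearest 8.63, ratio 0.899), where it was above background, while its other values were not.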

How the results depend on the processing

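Relative to the other probes the settings moved the median of all log2 fold changes little, except that leaving the arrays unscaled put it at 0.18 in place of -0.06; 892 probes were called higher and 5782 lower, against 97 and 81 after quantile normalization, 467 and 173 unscaled, 103 and 148 after normexp background correction, 9 and 11 with a floor under dim signals, and 174 and 146 with dim probes left out. For member probes called higher (5), quantile, normexp and the dim-probe filter each gave 2. For those called lower (14), quantile and the dim-probe filter gave 1, normexp 2 and unscaled arrays 0. Of genes detected on all 8 arrays, 1 in place of 3 was called lower after quantile normalization or the dim-probe filter and 0 unscaled. The methods' t-test, adjusted here over all probes, called 0 of all probes and the replicate block 1. This differs from the paper's array calls, which came from an analysis of variance with no adjustment stated. The floor, that t-test and the block each gave 0 for these counts and for the other antimicrobial genes called higher (2), which were 0 after quantile, normexp and the dim-probe filter and 4 with the intensity trend. At an unadjusted p under 0.05 the t-test found 7 member probes higher and 19 lower, and limma with the block 7 and 21. The share of all probes at that threshold was not counted. In the main fit 30 member probes were under it, and 15 of these were detected on no array, so these counts were not read as changes. Slpi kept 1.09 with adjusted p = 0.0891 with the floor, 0.0630 by the t-test and 0.0791 with the block. Correlations of deviations were -0.18 to 0.11 for mice of the same replicate number and -0.23 to 0.38 for the other pairs. They cannot show whether mice were paired. The paper compares Gen-treated mice with control littermates, but which samples shared a litter is not given. Without 1 array, member probes called higher ranged from 0 to 6 and lower from 0 to 17, genes detected on all 8 arrays from 0 to 3 in either direction, other antimicrobial genes from 0 to 3 and Slpi from 0.98 to 1.16; leaving out Gen 1, Gen 2 or Gen 3 gave 0 member calls, and leaving out control 1 gave 1 higher and 1 lower. Member genes detected were 17 in control and 23 in Gen, but 28 and 29 by the weaker flag and 31 and 31 on at least 1 array. Signs of uncalled members turned: to -0.024 for Defb1, -0.11 for Defb11, -0.13 for Defb3 and -0.023 for Defb36 after normexp, and to 0.056 for Defb14, 0.21 for Defcr20 and 0.18 for Pglyrp1 unscaled. Without 1 array Defb14 ranged from -0.36 to 0.16, Defcr20 from -0.26 to 0.21 and Pglyrp1 from -0.21 to 0.054. Apart from the adjustment described above for the dim-probe filter, why the calls changed was not tested.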

Other observations

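Genes of the same families whose names fall outside the rule were read as well, and were chosen for mention after their values were seen. They were 14 probes of 11 genes named Defcr-rs, Bpil or Lyzl, of which 1 was called higher (Lyzl4), 3 lower and 10 in neither direction. Over all probes 2.17% were called higher and 14% lower, and of the probes detected on no array 63.4% were called lower. Of the 3 lower, both Lyzl6 probes were detected on no array, and Bpil2 was detected on 3 control and 0 Gen arrays (41.5, 79.7, 13.4 and 56.7 in controls, 7.17, 10.6, 12.1 and 4.31 in Gen-treated mice; adjusted p = 0.0274). Lyzl4, a lysozyme-like gene best known from the male tract, read 1044 to 1439 in controls and 2008 to 2596 in Gen-treated mice (log2 fold change 0.96, SE 0.14, adjusted p = 0.0236). Bpil3, of the Bpi-like family, read 23.8, 78.4, 322 and 59.5 in controls and 1627, 1352, 267 and 310 in Gen-treated mice (log2 fold change 3.08, SE 0.90, adjusted p = 0.0535). Gen 1 and Gen 2 were the highest mice for Bpil3, as they were for Dmbt1 and Defb19, while Ngp, a neutrophil granule protein, read 15.4 and 28.3 in Gen 1 and Gen 2 and 249 and 162 in Gen 3 and Gen 4, as Camp did.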
